A study of Mus musculus with 6 samples.

Results

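This report concerns 10 genes of the IKK kinases and of the ubiquitin editors that act on NF-kB signalling: Chuk, Ikbkb, Ikbkg, Ikbke, Tbk1, Tank, Tnfaip3, Tnip1, Cyld and Otud7b. They were taken as every probe set of the array whose only gene symbol in the platform annotation is one of these names. That gave 27 probe sets for 9 of the genes, out of 34945 probe sets that name a single gene (18193 genes). Chuk, which encodes the kinase IKK-alpha, had no probe set paired with it in that annotation and is not analysed here.

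The arrays compared bone marrow macrophages of knockin (KI) mice with those of wild-type (WT) mice, all of the C57BL/6 strain, with 3 arrays for each genotype. Every dish had received 44 ng/ml M-CSF together with 100 ng/ml RANKL for 24 hours, so both genotypes had been given the factor that starts osteoclast formation, and no unstimulated cells were compared. The series title names the IVVY motif of RANK, the receptor for RANKL; the labels do not give the altered residues, the sex or age of the mice, or whether cells were pooled. Nothing in the labels says that the 3 arrays of a genotype came from separate mice, so p-values measure the spread between these arrays, which may be technical.

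RANK passes its signal through TRAF adaptors and the kinase TAK1 to the IKK complex, in which the kinases IKK-alpha and IKK-beta are held by the scaffold NEMO. The complex marks IkB proteins for destruction and so frees NF-kB, and mice without IKK-beta in the myeloid lineage form osteoclasts poorly. The related kinases IKK-epsilon and TBK1, held by adaptors such as TANK, act chiefly on interferon regulatory factors and can also feed into NF-kB. The signal is carried by ubiquitin chains, which A20 (Tnfaip3), CYLD and Cezanne (Otud7b) cut or edit, A20 together with its partner ABIN1 (Tnip1). Tnfaip3 is itself a gene that NF-kB switches on, which makes A20 a feedback inhibitor, and mice that lack CYLD have overactive osteoclast precursors.

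Of the 5 members whose tested probe sets all passed in 1 direction, the 4 with a promoter window in the table used are shown first. Otud7b had none. Each is the 250 bases before a transcription start from RefSeq (GRCm38.p6), 5′ to 3′ on the gene's own strand. Capitals mark matches on either strand to a kappaB-like motif (GGG, 3 bases of any kind, then TTCC) or to an AP-1-like motif, TGANTCA. A narrower kappaB-like form (GGG, 2 bases of any kind, then TTTCC) is contained in the first, and every kappaB-like match holds the GGAA core that ETS factors read. Tnfaip3 lies at chr10:19015411-19015660 (minus strand), Tnip1 at chr11:54962941-54963190 (minus strand), Tank at chr2:61592847-61593096 (plus strand) and Ikbke at chr1:131279564-131279813 (minus strand).
Tnfaip3: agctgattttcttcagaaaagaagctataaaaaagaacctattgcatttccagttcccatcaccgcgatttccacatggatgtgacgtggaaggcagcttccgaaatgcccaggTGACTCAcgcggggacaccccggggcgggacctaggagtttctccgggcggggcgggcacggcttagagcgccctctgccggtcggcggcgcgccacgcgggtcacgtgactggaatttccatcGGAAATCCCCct
Tnip1: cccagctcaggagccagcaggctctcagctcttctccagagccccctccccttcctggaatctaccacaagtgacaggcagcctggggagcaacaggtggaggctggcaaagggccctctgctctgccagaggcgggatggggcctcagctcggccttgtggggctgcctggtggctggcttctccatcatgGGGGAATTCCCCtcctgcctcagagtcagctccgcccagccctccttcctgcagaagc
Tank: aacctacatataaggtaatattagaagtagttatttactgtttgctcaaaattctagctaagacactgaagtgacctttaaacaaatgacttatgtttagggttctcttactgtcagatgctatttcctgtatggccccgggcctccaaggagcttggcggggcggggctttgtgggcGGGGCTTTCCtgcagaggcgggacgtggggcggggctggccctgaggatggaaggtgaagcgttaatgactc
Ikbke: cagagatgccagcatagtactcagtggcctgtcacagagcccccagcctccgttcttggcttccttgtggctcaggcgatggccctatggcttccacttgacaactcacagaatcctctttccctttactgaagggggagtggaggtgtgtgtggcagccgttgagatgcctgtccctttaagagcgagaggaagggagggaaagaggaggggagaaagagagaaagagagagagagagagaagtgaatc
The Tnfaip3 window holds the narrow kappaB-like form 3 to 12 bases before the start and an AP-1-like match 130 to 136 bases before it. The Tnip1 window holds overlapping kappaB-like matches on both strands, 47 to 58 bases before the start, and that of Tank holds the narrow form 63 to 72 bases before it. The Ikbke window holds none of these letters. Of the 8 members with a window in the table, 5 had a kappaB-like match in at least 1 window (Chuk, Cyld, Tank, Tnfaip3 and Tnip1), against 5.31% of all 27025 genes with a window. The narrow form was in 3 of the 8 (Cyld, Tank and Tnfaip3), against 1.65% of all genes, and the AP-1-like motif in 3 (Ikbkg, Tank and Tnfaip3), against 7.82%. Several members have more than 1 start site: over windows, 9 of the members' 15 held the wider kappaB-like motif, against 4.65% of all 32851, and those of Tank overlap in pairs. The genes printed were chosen by their calls, and the windows printed were chosen with the matches known. Tank and Tnfaip3 had more than 1 window to choose from and Ikbke only 1. Whether the letters have any link to the levels was not tested. These matches describe the letters of the windows and no binding was measured.

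Deposited intensities had a median of 83 to 84.8 on the 6 arrays. They were floored at 16, put on the log2 scale and tested with limma over the 22518 probe sets whose mean lay above the median, an intensity of 84.7. With 3 arrays for each genotype the precision is limited. The defining macrophage markers measured all passed that filter (8 of 8), and all 8 were higher in KI cells, with a summed intensity of 144959 to 152601 on KI arrays and 91977 to 114702 on WT arrays. Of 9 osteoclast markers 8 were tested, all but the dim Calcr, and 7 were lower in KI cells. Sums over all 9 were 32590 to 36449 on KI arrays and 70463 to 81016 on WT arrays. Among 6 neutrophil markers 4 were higher in KI cells, with sums of 14414 to 28763 on KI arrays and 10269 to 12732 on WT arrays. Markers of B cells, T and NK cells and mast cells were dim, with median intensities of 45.0, 44.5 and 53.1, below the filter; 1 of 4, 1 of 4 and 0 of 4 were tested. Of 2 erythroid markers 1 was tested and did not pass. Stromal markers were present, with sums of 2958 to 11598 on KI arrays and 3028 to 10257 on WT arrays. Of these 5 stromal markers 1, Dcn, was lower in KI cells. The part of these differences in the values below was not tested, and in such bulk RNA fewer cells of a type cannot be told apart from less RNA per cell.

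Among the members, Ikbke stood far higher in KI cells, while Tank, Tnfaip3, Tnip1 and Otud7b were lower on every probe set. Of the 27 probe sets 26 passed the intensity filter and were tested. At an adjusted p under 0.05 (limma, Benjamini-Hochberg), 2 were higher in KI cells, 13 were lower and 11 did not pass. Differences between the genotypes were widespread on these arrays: 44.9% of all tested probe sets passed, 19.3% higher and 25.6% lower in KI cells. That split of 4345 higher and 5756 lower became 2546 and 9011 when arrays were scaled to the spike-in controls, and 728 and 10586 with their older probes. As deposited, the members' count of higher probe sets was below the share over the whole array and the count of lower ones above it. With the older spike-in probes 1 of 26 members was higher, beside those 728 of 22518, and the first of these statements does not hold. The counts take probe sets of 1 gene separately, and Otud7b gave 4 and Ikbkg 3 of the 13 lower ones. With 1 mean of log2 values per gene, Ikbke and Ikbkb passed as higher. Ikbkg, Tank, Tnfaip3, Tnip1 and Otud7b then passed as lower, while Tbk1 and Cyld did not pass. The tested member probe sets had a median log2 difference of -0.26, where that of all tested probe sets was -0.04. At least 2-fold and past the threshold were 1 higher and 3 lower member probe sets, against 4.19% and 3.96% of all tested (8.15% in either direction). KI and WT values did not overlap for 22 of the 26, against 60.9% of all tested probe sets.

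**Figure D1:**
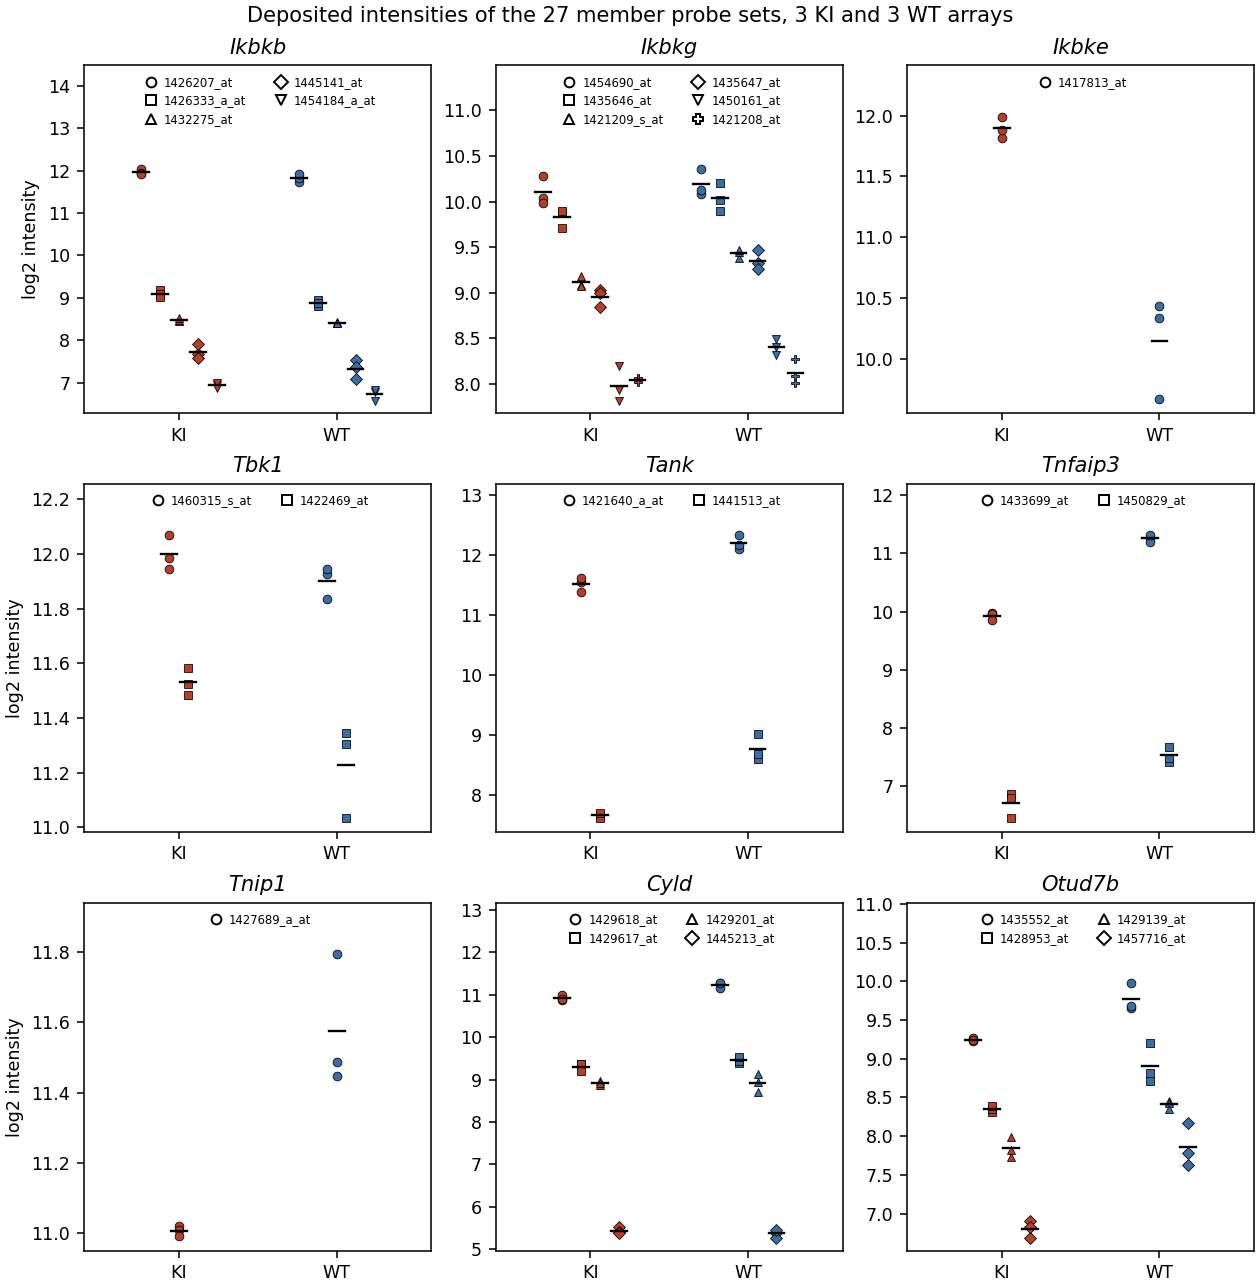
Intensity on the log2 scale of the 27 member probe sets, with 1 panel per gene and 1 symbol per probe set; points are arrays (KI left, WT right, 3 each) and bars are group means. The 3 KI arrays lie above the WT arrays for Ikbke and below them for both Tank, both Tnfaip3, the Tnip1 and all 4 Otud7b probe sets, while the brightest Ikbkb probe set reads 3902 to 4210 in KI cells and 3395 to 3851 in WT cells.

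Of the IKK complex, Ikbkb and Ikbkg were measured: no Ikbkb probe set passed and 3 of 6 Ikbkg probe sets were lower in KI cells. Ikbkb, which encodes the main kinase for IkB, had 5 probe sets and none passed the test. Its brightest probe set (1426207_at) read 4210, 3943 and 3902 in KI cells, against 3395, 3622 and 3851 in WT cells. The lowest KI array was thus just above the highest WT array. The log2 difference was 0.15 (95% interval -0.02 to 0.32, adjusted p = 0.12 by limma). The other 4 probe sets of Ikbkb had log2 differences of 0.07 to 0.39, all positive, with adjusted p of 0.060 to 0.50, and on each the KI arrays lay above the WT arrays. As 1 mean of log2 values per gene, Ikbkb was 0.21 higher in KI cells and passed (SE 0.06, adjusted p = 0.030 by limma over 9096 genes). That direction depended on the scaling. When arrays were scaled to the spike-in controls the brightest probe set had a difference of -0.055. With an older set of spike-in probes all 5 were negative, and none passed (adjusted p of 0.13 to 0.66 by limma).

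Ikbkg, which encodes the scaffold NEMO, had 6 probe sets, all lower in KI cells on average. The 3 that passed were 1421209_s_at (of a kind that can match several transcripts), 1435647_at and 1450161_at. On the first of these KI cells read 543, 580 and 540, against 665, 699 and 710 in WT cells, so that every KI array lay below every WT array. This probe set fell by 0.32 log2 units (SE 0.08, adjusted p = 0.015 by limma). Probe set 1435647_at fell by 0.39 (SE 0.09, adjusted p = 0.015 by limma) and 1450161_at by 0.43 (SE 0.12, adjusted p = 0.024 by limma). The brightest one, 1454690_at, read 1239, 1052 and 1015 in KI cells and 1084, 1122 and 1312 in WT cells, with groups that overlapped. Its log2 difference was -0.09 (95% interval -0.36 to 0.18, adjusted p = 0.55 by limma), and the last 2 had differences of -0.21 and -0.07 (adjusted p = 0.14 and 0.54 by limma). Whether probe sets of the gene differ from each other was not tested. Without KI 3 none of the 3 calls remained, with adjusted p of 0.063 to 0.086. Without WT 3 those of 1421209_s_at (0.052) and 1450161_at (0.075) ended, and 1450161_at also lost its call without KI 1 (0.069) and without the intensity filter (0.062). All 3 calls ended with the serial number of the sample descriptions as covariate (0.068 to 0.12). With 1 mean per gene Ikbkg fell by 0.25 (SE 0.08, adjusted p = 0.039 by limma).

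**Figure D2:**
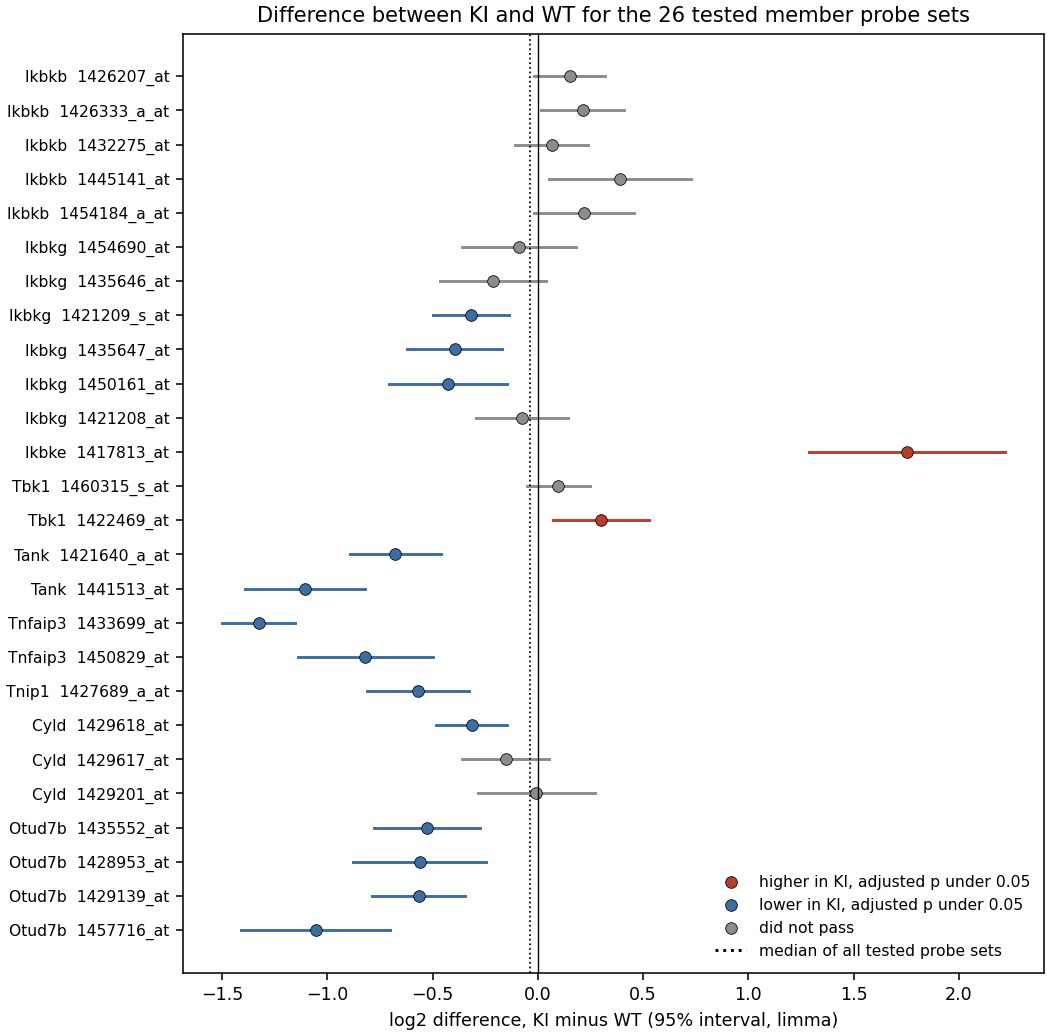
Log2 difference between KI and WT cells for the 26 tested member probe sets, with 95% intervals from limma; the dotted line is the median of all tested probe sets (-0.04). Ikbke lies at 1.75 on the right, the Tank, Tnfaip3, Tnip1 and Otud7b probe sets lie between -1.33 and -0.53, and the 5 Ikbkb values lie between 0.07 and 0.39, with 2 intervals that exclude 0 and 3 that hold it.

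The IKK-related kinases and their adaptor TANK moved apart. Ikbke, which encodes IKK-epsilon, an inducible kinase of immune cells, had 1 probe set (1417813_at). It read 4074, 3610 and 3776 in KI cells, against 814, 1289 and 1383 in WT cells. Every KI array lay more than 2-fold above the highest WT array, and WT 1 was the lowest of all. The mean was 3820 ± 235 in KI cells and 1162 ± 305 in WT cells (SD, n = 3 each). The gene rose by 1.75 log2 units (SE 0.20, adjusted p = 0.0013 by limma), a 3.37-fold difference. Only 0.777% of all tested probe sets had a higher difference. Without WT 1 the rise was 1.51 and still passed.

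Tbk1, whose product is the constitutive partner kinase, had 2 bright probe sets. The brighter one (1460315_s_at, of a kind that can match several transcripts) read 3943, 4294 and 4056 in KI cells, against 3653, 3894 and 3938 in WT cells. These ranges nearly touched, and the log2 difference was 0.10 (95% interval -0.05 to 0.25, adjusted p = 0.25 by limma). Probe set 1422469_at read 3068, 2944 and 2867 in KI cells, against 2099, 2533 and 2601 in WT cells. There it rose by 0.30 (SE 0.10, adjusted p = 0.040 by limma). That call ended when KI 1, KI 2, KI 3 or WT 2 alone was left out (adjusted p of 0.061 to 0.11). It also ended without the intensity filter (0.085) and with the description number as covariate (0.13). In that last fit the difference was 0.33. Scaled to the spike-in controls the difference was 0.096 (adjusted p = 0.41 by limma). With their older probes it turned to -0.23 and did not pass (adjusted p = 0.45 by limma).

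Tank encodes an adaptor that binds TBK1, IKK-epsilon and TRAF proteins, and both of its probe sets were lower in KI cells. The brighter one (1421640_a_at) read 2691, 3007 and 3160 in KI cells, against 4386, 4622 and 5151 in WT cells. It fell by 0.68 log2 units (SE 0.09, adjusted p = 0.0021 by limma). Probe set 1441513_at read 205, 198 and 208 in KI cells, against 520, 391 and 415 in WT cells, and fell by 1.11 (SE 0.12, adjusted p = 0.0012 by limma). On both probe sets the groups were well separated. The lower one was among the 2.83% of tested probe sets with the most negative differences.

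Among the ubiquitin editors Tnfaip3 had the largest difference. Its brighter probe set (1433699_at) read 1002, 999 and 930 in KI cells, against 2458, 2348 and 2542 in WT cells. The 2 groups were tight, at 977 ± 40.6 in KI cells and 2449 ± 97.5 in WT cells (SD, n = 3 each). The gene fell by 1.33 log2 units (SE 0.07, adjusted p = 0.00020 by limma), so that the WT level was 2.51 times that of KI cells. A dimmer probe set (1450829_at) read 116, 87.7 and 111 in KI cells, against 170, 179 and 204 in WT cells. It fell by 0.82 (SE 0.13, adjusted p = 0.0041 by limma). Of the tested probe sets, 1.49% had a more negative difference than the first and 6.43% than the second.

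Tnip1, which encodes the A20-binding protein ABIN1, had 1 probe set (1427689_a_at). It read 2078, 2061 and 2034 in KI cells, against 3552, 2792 and 2869 in WT cells. The KI arrays were nearly equal, and WT 1 was the highest array. The gene fell by 0.57 log2 units (SE 0.10, adjusted p = 0.0055 by limma). Without WT 1 it still fell, by 0.46 (adjusted p = 0.0016 by limma).

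All 4 probe sets of Otud7b, the gene of the deubiquitinase Cezanne, were lower in KI cells. The brightest (1435552_at) read 601, 615 and 606 in KI cells, against 1011, 808 and 818 in WT cells. Here too the KI arrays agreed closely among themselves and WT 1 was the highest. It fell by 0.53 log2 units (SE 0.11, adjusted p = 0.0080 by limma). Probe sets 1428953_at and 1429139_at fell by 0.56 and 0.57 (adjusted p = 0.014 and 0.0043 by limma). The dimmest, 1457716_at, read 119, 103 and 113 in KI cells, against 287, 198 and 219 in WT cells, and fell by 1.05 (SE 0.15, adjusted p = 0.0026 by limma). With the description number as covariate the calls of 1435552_at (adjusted p = 0.057) and 1428953_at (0.075) ended. Their differences were then -0.52 and -0.58.

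Cyld, the gene of a deubiquitinase that restrains RANK signalling, gave an unequal picture over its 4 probe sets. The brightest (1429618_at) read 2029, 1885 and 1912 in KI cells, against 2487, 2282 and 2476 in WT cells, and every KI array lay below every WT array. It fell by 0.31 log2 units (SE 0.07, adjusted p = 0.012 by limma). Probe set 1429617_at had a log2 difference of -0.15 (adjusted p = 0.20 by limma) and 1429201_at one of -0.01 (95% interval -0.29 to 0.27, adjusted p = 0.97 by limma). The last, 1445213_at, lay below the filter, at 45.8, 42.2 and 41.9 in KI cells and 41.9, 38.7 and 44.1 in WT cells. The call of the brightest ended without KI 3 (adjusted p = 0.055) and with the description number as covariate (0.10). In that last fit its difference was -0.26. With 1 mean per gene Cyld differed by -0.10 (adjusted p = 0.26 by limma).

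Ratios of 2 members within an array do not depend on how arrays were scaled to each other, and they set the change of one member beside that of another. Of the 8 pairs planned, 7 could be computed, and for all 7 the KI and WT arrays did not overlap. The two-sided exact permutation test gave p = 0.1 for each, the smallest that 3 against 3 arrays can give (adjusted p = 0.1 over the 7 pairs), so none could pass a threshold of 0.05. The log2 ratio of Ikbke to Tbk1 averaged -0.10 ± 0.15 in KI cells and -1.76 ± 0.36 in WT cells (SD, n = 3 each), a difference of 1.65, and that of Ikbke to Ikbkb differed by 1.602. Tank to Tbk1 averaged -0.48 ± 0.10 in KI cells and 0.30 ± 0.08 in WT cells (SD, n = 3 each), a difference of -0.77. The log2 ratio of Tnfaip3 to Cyld had a difference of -1.01, that to Otud7b one of -0.80 and that to Tnip1 one of -0.76. The smallest difference was that of Ikbkg to Ikbkb, -0.24. Only differences between the genotypes can be read here, since intensities of unlike probe sets are not on a common level scale.

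**Figure D3:**
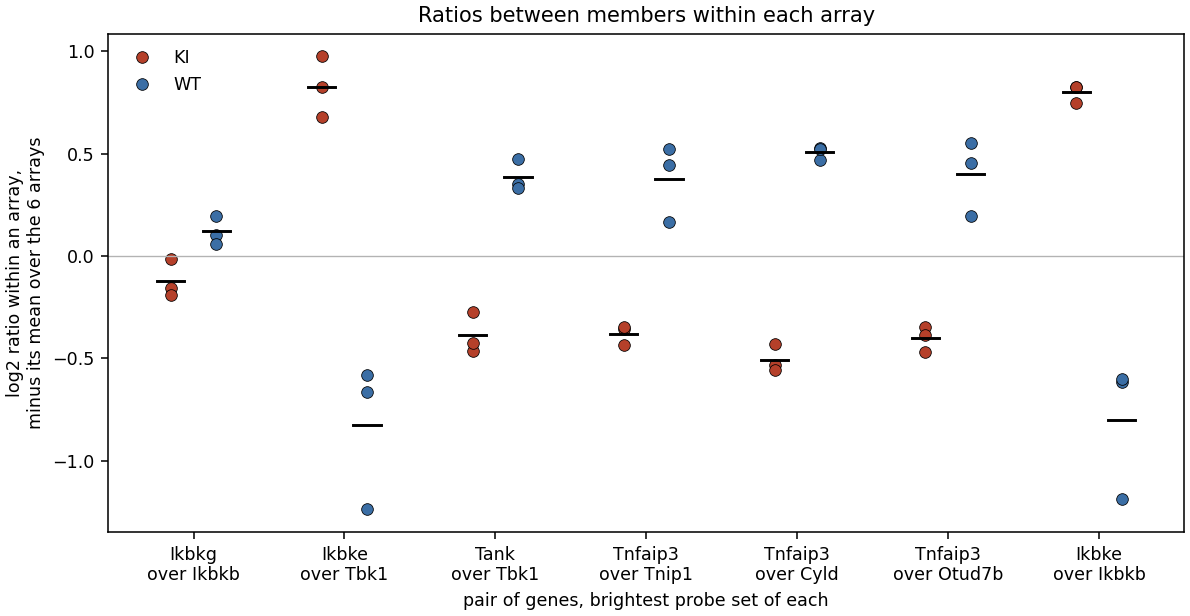
Log2 ratio of the intensities of 2 members within each array, minus its mean over the 6 arrays; points are arrays (KI left, WT right) and bars are group means. The KI arrays lie above the WT arrays for Ikbke over Tbk1 and over Ikbkb, and below them for the other 5 pairs.

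The arrays of a genotype did not vary alike. Of the 26 tested member probe sets, WT 3 was the highest WT array for 16 and the lowest for 2, and WT 1 was the lowest for 14 and the highest for 7. KI 1 was the highest KI array for 13 and KI 3 the lowest for 13. WT 1 was the low one for Ikbke and for both Tbk1 probe sets, and the high one for Tnip1 and all 4 Otud7b probe sets. WT 1 lay on the far side from the KI arrays for each of these genes. The same array stood apart in many cell-type markers, though not in all. The macrophage gene Mrc1 read 1716 on WT 1 and 4650 and 4817 on WT 2 and WT 3, and Fcgr1 read 1505 against 3141 and 3414. The osteoclast gene Oscar, which did not pass, read 240 against 119 and 122. Ctsk, Nfatc1, Dcstamp, Ocstamp and Atp6v0d2 were also highest on WT 1 among the WT arrays, while Acp5 and Mmp9 were not. Without WT 1 the calls of Ikbke, Tnip1, Tbk1 1422469_at and all 4 Otud7b probe sets were still made, the Tbk1 difference being 0.20 (adjusted p = 0.036 by limma) and those of Otud7b -0.90 to -0.42.

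Around the members, genes of the same pathway were read from 4 lists, and the calls below are of probe sets in the same fit. Of the genes listed, Nfkb1, Traf3, Ripk1, Tnip3, Optn and Tmem173 had no probe set that names them alone. NF-kB subunits and IkB proteins had the highest share called of the 4 lists, 77.8% beside 44.9% of all tested probe sets. Of 18 probe sets of 10 genes, 3 were higher and 11 lower in KI cells. The median log2 difference of the list was -0.60, beside -0.04 over all tested. Nfkbia, which encodes IkB-alpha, was lower on all 5 of its probe sets and so makes up 5 of those 11; 1448306_at read 5214, 6085 and 5774 in KI cells, against 12447, 11680 and 11943 in WT cells, and fell by 1.08 (SE 0.07, adjusted p = 0.00025 by limma). Nfkbid, which encodes a nuclear IkB protein, fell by 1.16 (SE 0.12, adjusted p = 0.0011 by limma), and Nfkb2 fell as well. In the other direction Nfkbiz, another nuclear IkB gene, rose by 0.88 (SE 0.20, adjusted p = 0.012 by limma), as did its other 2 probe sets. Rela, the main activating subunit, had a log2 difference of 0.03 (adjusted p = 0.77 by limma).

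The list of receptor, TRAF and upstream kinase genes also held Map3k8 and Ikbip. Of its 24 tested probe sets of 13 genes, 4 were higher and 5 lower (median log2 difference -0.02). That is 37.5% called, beside 44.9% of all tested probe sets. Lower were Traf1 on both probe sets, with log2 differences of -3.18 and -2.95, Traf2 (-1.20) and Traf5 (-0.58). Also lower was 1 of 2 probe sets of Tnfrsf11a (-1.14), while the other had a difference of 0.22 and did not pass. Map3k8, the gene of the kinase TPL-2 that IKK releases from p105, rose by 1.17 (SE 0.25, adjusted p = 0.0095 by limma), reading 1258, 783 and 921 in KI cells, against 310, 483 and 527 in WT cells. Map3k3 rose by 0.58 (SE 0.09, adjusted p = 0.0034 by limma), on 2 of 3 probe sets, and Ikbip by 0.49 (SE 0.12, adjusted p = 0.015 by limma) on 1 of its 2 tested probe sets. None of the probe sets of Map3k7, which encodes TAK1, or of its partners Tab1, Tab2 and Tab3 passed.

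Among ubiquitin ligases and other editing partners, 4 of 33 probe sets were higher and 4 lower (20 genes, median log2 difference -0.04). That is 24.2% called, beside 44.9% of all tested probe sets. The ligase genes Birc2 and Birc3 made up 3 of the lower ones; Birc3 (1421392_a_at) read 4287, 3583 and 3672 in KI cells, against 6649, 7534 and 8251 in WT cells, and fell by 0.96 (SE 0.10, adjusted p = 0.0012 by limma). The fourth was Tnip2, which encodes ABIN2, a relative of ABIN1, with a fall of 0.31 (SE 0.09, adjusted p = 0.026 by limma). Rnf11, whose product works with A20, rose by 0.37 (SE 0.08, adjusted p = 0.0095 by limma), on 1 of 2 tested probe sets. The genes of the other A20 partners, Itch and Tax1bp1, and of the linear ubiquitin ligase, Rnf31, Rbck1 and Sharpin, had no probe set past the threshold. Trim30a, on 1 of 2 probe sets, rose by 0.42 and Usp21 by 0.51 (adjusted p = 0.019 and 0.025 by limma), and the linear-chain deubiquitinase gene Otulin rose by 0.26 (adjusted p = 0.026 by limma).

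On the side of TBK1 and IKK-epsilon, 3 of 22 probe sets of adaptors, interferon regulatory factors and sensors were higher and 1 was lower (11 genes, median log2 difference -0.03). That is 18.2% called, beside 44.9% of all tested probe sets. Both probe sets of Azi2, which encodes NAP1, an adaptor of TBK1 related in function to TANK, were higher. The one with the smaller p (1448032_at) read 962, 851 and 896 in KI cells, against 491, 580 and 656 in WT cells, and rose by 0.66 (SE 0.12, adjusted p = 0.0061 by limma). Irf5 rose by 0.44 (SE 0.08, adjusted p = 0.0067 by limma), on 1 of 2 probe sets. The adaptor gene Tbkbp1 fell by 0.40 (SE 0.10, adjusted p = 0.016 by limma) on 1 of 2 probe sets. Irf3 and Irf7, the factors these kinases phosphorylate, had log2 differences of -0.04 to -0.01 on their tested probe sets, none of which passed. That balance turned when arrays were scaled to the spike-in controls, with 1 higher and 9 lower in this list, and with their older probes, with 0 and 8. The ubiquitin list turned as well, to 0 higher and 12 lower and to 0 and 14.

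**Figure D4:**
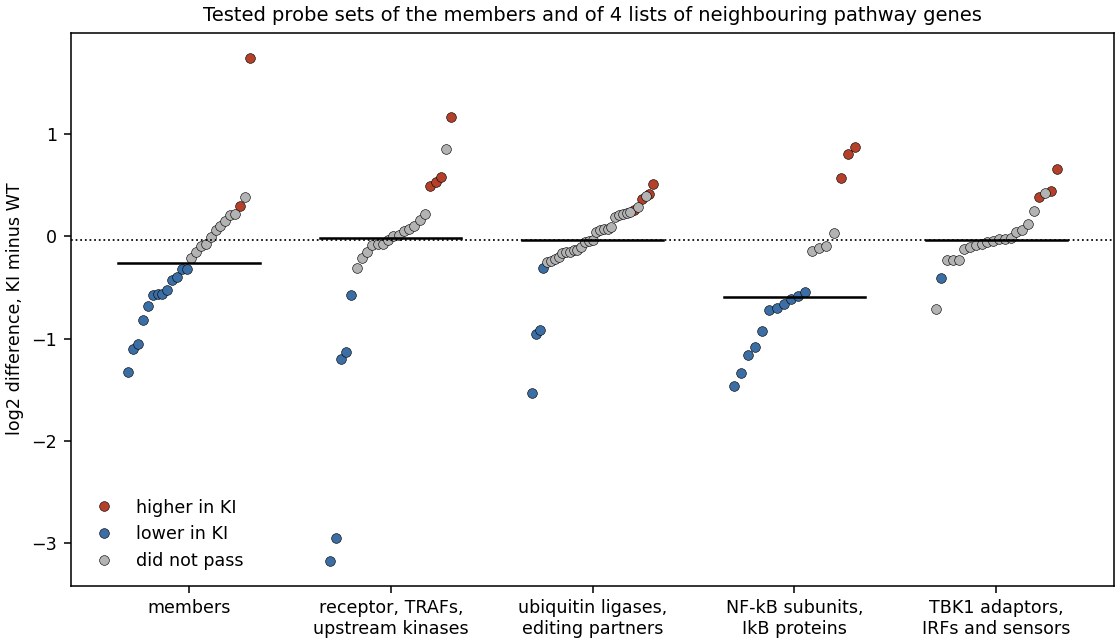
Log2 difference between KI and WT cells of each tested probe set of the members and of 4 lists of neighbouring pathway genes; bars are medians and the dotted line is the median of all tested probe sets (-0.04). The NF-kB subunits and IkB proteins have a median of -0.60, the members one of -0.26, and the medians of the other 3 lists lie near the dotted line.

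Many genes followed the profile of Tnfaip3, or its inverse, over the 6 arrays. Of 19487 single-gene probe sets of other genes, 1665 had a Pearson r above 0.95 with its brighter probe set and 1132 had one below -0.95. The 5 closest were those of Pde2a, Ivns1abp, Src, Malt1 and Orai2, with r of 0.9992 to 0.9999 over 6 arrays that share the same 2 groups. Malt1, which encodes a protease of immune signalling that cuts A20, fell by 1.99 (SE 0.10, adjusted p = 0.00020 by limma). These values describe likeness over few arrays and carry no test.

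The size of every difference depends on the scale that sets the arrays side by side. As deposited, the median log2 difference of all tested probe sets was -0.04; scaled to the spike-in controls it was -0.25, and scaled to their older probes -0.57. Relative to that median, the brightest probe set of Ikbke stood at 1.79 and that of Tnfaip3 at -1.29; these are the same under each of these scalings by construction, since a scaling shifts all probe sets of an array alike. Without that subtraction Ikbke had differences of 1.55 and 1.22 under the 2 spike-in scalings, and Tnfaip3 had -1.53 and -1.86. The older probes differed among arrays of 1 genotype (mean log2 of 10.40, 10.84 and 10.24 on WT 1, WT 2 and WT 3).

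**Figure D5:**
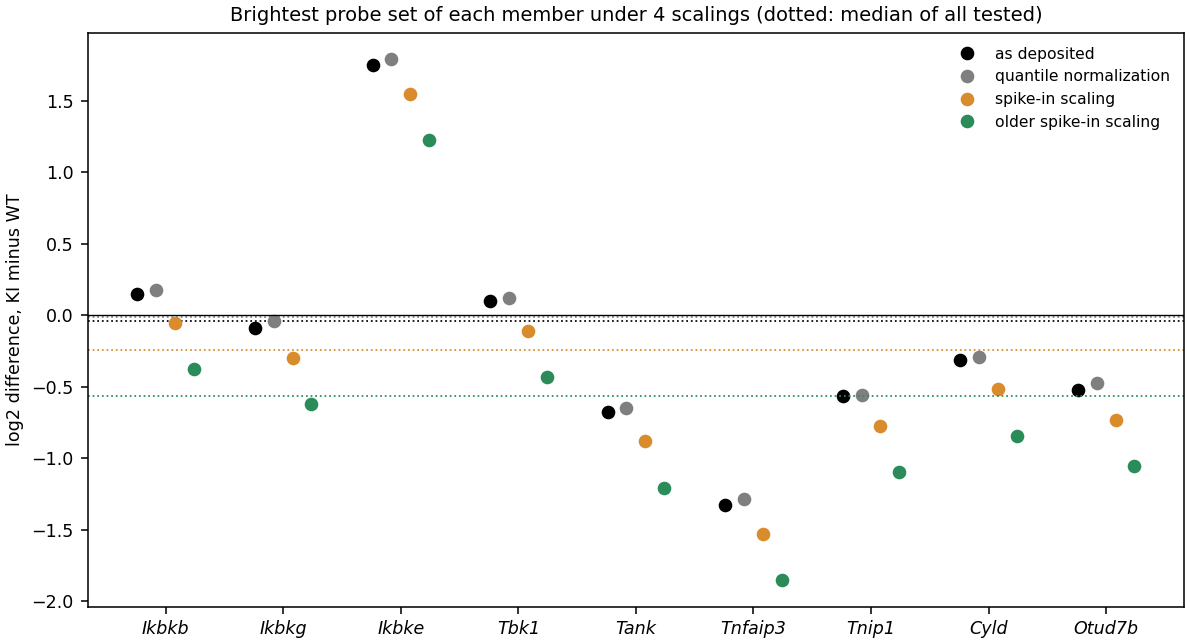
Log2 difference between KI and WT cells of the brightest probe set of each member under 4 scalings, with a dotted line of the same colour for the median of all tested probe sets. Ikbke stays above 1.2 and Tank, Tnfaip3, Tnip1, Cyld and Otud7b stay below 0 under all 4, while Ikbkb and Tbk1 turn negative under both spike-in scalings.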

How the data were processed

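Per the labels' protocols, RNA was labelled with biotin from an oligo-dT primer and hybridised to Affymetrix mouse 430 2.0 arrays. The deposited table holds 1 linear intensity per probe set and array, made with Affymetrix Expression Console per the submitters' processing notes; its version, and how values were summarised and normalized, is not given in the sources used here. Array medians were close, so the values were taken as already normalized.

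Of 45101 probe sets 64 controls were left out. Intensities were floored at 16 (5.46% lay below) and log2 transformed. The 2 genotypes were tested against each other in limma 3.58.1 under R 4.3.3 (eBayes with an intensity trend), with Benjamini-Hochberg adjustment over all 22518 probe sets above the median. Gene names came from the platform annotation; 9 of the 10 members matched GRCm38.p6 genes by identifier. All member probe sets were named; of each list, up to 3 genes in each direction with the smallest p among called probe sets whose groups do not overlap, with others named after their values were seen. The members and lists were chosen with earlier results of these data known. The steps were tested on simulated data, where 22.4% of differences of 0.5 log2 units, 81.5% of those of 1 and 98.5% of those of 2 were recovered. There 67, 67 and 66 of 22518 probe sets were given differences of these sizes, while 44.9% passed on the real arrays. The shares recovered may therefore not hold for these data. Small differences that did not pass may still have been missed.

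Alternatives were quantile, median and spike-in scalings, filters, another log transform, variance priors, array weights and a replicate block. Others were the description number as a covariate, arrays left out, and other choices of probe sets.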

Additional observations from a re-analysis of the deposited data

How the results depend on the processing

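Of the 15 called member probe sets, 8 passed in the same direction under every alternative that gave them a value: Ikbke higher, and both Tank, both Tnfaip3, the Tnip1 and 2 Otud7b probe sets (1429139_at and 1457716_at) lower. Ikbke ranged from 1.22 to 1.90 and the brighter Tnfaip3 probe set from -1.86 to -1.07. All 7 ratios kept their sign under the settings that can move them (quantile normalization, log2 of intensity plus 32 and arrays left out). The cause of the changes that follow was not tested.

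Scaled to the spike-in controls, 2546 probe sets were higher and 9011 lower in KI cells, with 1 higher and 15 lower among the members; with their older probes these were 728 and 10586, with 1 and 16. The spike-in controls turned Ikbkb 1426207_at to -0.055 and 1432275_at to -0.14, and Tbk1 1460315_s_at to -0.11. The older probes turned all Ikbkb probe sets (1426207_at -0.38, 1426333_a_at -0.32, 1432275_at -0.46, 1445141_at -0.14, 1454184_a_at -0.31) and both of Tbk1 (1460315_s_at -0.43, 1422469_at -0.23). None of these passed with the older probes. Under quantile normalization Cyld 1429201_at was at 0.048. Without the intensity filter 1 member was higher, where 3686 of all probe sets were. With array weights 4 members were higher and 16 lower, where 6436 and 7912 of all probe sets were. With a filter at the top 30% of intensities, which kept 17 member probe sets, 8 were lower, where 4332 of all were. With the description number as covariate 2844 probe sets were higher and 3637 lower, among the members 1 and 7. Ikbkg 1454690_at was then at 0.040. The number partly follows genotype, so that fit cannot separate them well.

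Same-numbered arrays of the 2 genotypes deviated against each other (correlations of -0.401, -0.295 and -0.296), so the numbers were not read as pairs. With the replicate block 2693 probe sets were higher and 3491 lower, among the members 1 and 9; the calls of 3 Ikbkg probe sets (adjusted p of 0.067 to 0.079), Cyld 1429618_at (0.057) and Tbk1 1422469_at (0.11) ended, and no other member call did.

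With 1 array left out, 2936 to 4180 probe sets were higher and 3857 to 5155 lower; among the members 1 to 2 were higher, 1 when KI 1, KI 2 or KI 3 was the one left out, and 9 to 13 lower. Without 1 array, or without WT 1 and KI 1 together, Cyld 1429201_at ranged from -0.14 to 0.093. Over the alternatives, lower probe sets among ubiquitin ligases and partners numbered 3 to 14 and higher ones 0 to 8; those of the TBK1 list 0 to 9 and 0 to 5; those of the upstream list 4 to 10 and 1 to 5; those of the NF-kB and IkB list 8 to 14 and 0 to 3. The list counts under alternatives were added after seeing the data. Dim probe sets, such as 1445213_at of Cyld, limit what can be said of them.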
